A study of Mus musculus with 20 samples.

Results

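The genes described here are the 10 genes through which the intestine senses, carries and answers to bile acids: Fgf15, Nr1h4, Nr0b2, Gpbar1, Slc10a2, Fabp6, Slc51a, Slc51b, Abcc3 and Abcc2. They were chosen by name as members of this pathway, and all 10 were found among the 21154 genes named on the array, each through 1 probe. The series holds 20 single-colour microarrays, 1 for each of 5 tissues on each of 4 diets. The animals were male C57BL/6J mice that entered the experiment at 5 weeks of age and ate their diet for 13 weeks. The CD group ate a control diet with 10% of its energy as fat. The HFD group ate a diet with 60% of its energy as fat, and the HFD+PP and HFD+Ex groups ate that diet with 2% by weight of porphyran, a sulphated galactan of the red alga nori, or with 2% by weight of a nori extract. The tissues were ileum, colon, liver, mesenteric white fat (Mwat in the plots) and brown fat (Bat in the plots). Each array held RNA pooled from the 7 mice of a group, so a diet has 1 array per tissue, the differences between diets have no replicate check and no p-value is given for them.

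Bile acids are made from cholesterol in the liver, secreted in bile and taken up again in the ileum. In the ileal enterocyte, Slc10a2 (ASBT) takes them up from the lumen, Fabp6 binds them in the cytosol, and the heterodimer of Slc51a and Slc51b (OSTα and OSTβ) releases them into portal blood. Nr1h4 encodes FXR, the nuclear receptor that bile acids activate. FXR induces Fgf15, a hormone that travels to the liver, where it acts on the receptor Fgfr4 with its co-receptor Klb and represses Cyp7a1, which catalyses the rate-limiting step from cholesterol to bile acids.

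Levels are given as log2 of the background-corrected, scanner-processed intensity minus the 75th percentile of the same array, so that 0 is a bright probe and a step of 1 is a 2-fold change. Levels of different genes come from different probes and were not set against each other. A gene counted as measured in a comparison where either array read its spot well above background, and it is said to have risen or fallen where the difference was at least 2-fold. Between 50.7% and 67.9% of the spots of an array were well above background and none was saturated. Repeat spots of a probe on 1 array had an SD of 0.047 to 0.063 log2, which is the within-array error and leaves out the spread between mice. The arrays lay on 4 slides. All ileum arrays shared a slide, as did all colon arrays and all liver arrays, so diet differences in these tissues were made within a slide, whereas tissue and slide cannot be told apart.

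The tissue labels were checked against marker genes. All 20 gut epithelium markers (Epcam, Vil1, Cdh17 and others) were well above background on every ileum and colon array. Other markers showed RNA of neighbouring tissues on some arrays. All 12 hepatocyte markers were well above background in the CD pools of ileum and colon, with median differences from the liver of the same diet of -10.14 and -8.63 log2, against 7 and 11 of 12 on the other ileum and colon arrays. In mesenteric fat, 18 to 20 of 20 markers of small intestinal enterocytes were well above background. In brown fat, 11 of 12 hepatocyte markers were well above background on HFD against 6 on CD. Marker lists that moved with a result are given beside it.

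Across tissues, 7 of the 10 genes were higher in ileum than in colon and 1 was lower; Fgf15, among the 7, entered the test through its ileum arrays alone, so its call follows from that filter. Over all 16850 genes tested, 15.5% passed the same call in either direction (limma with diet as a block, 4 arrays per tissue, adjusted p under 0.05 and at least 2-fold). Against liver, 5 members were higher in ileum and 3 lower, with 50% of all genes called. Fgf15 is among these 5, and its call again follows from that filter. In colon against liver, 2 were higher and 5 lower, with 48.5% of all genes called. The 4 arrays of a tissue were pools on 4 different diets. With diet as a block, the spread in this test is how far tissue differences varied between diets, array error included.

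**Figure D1:**
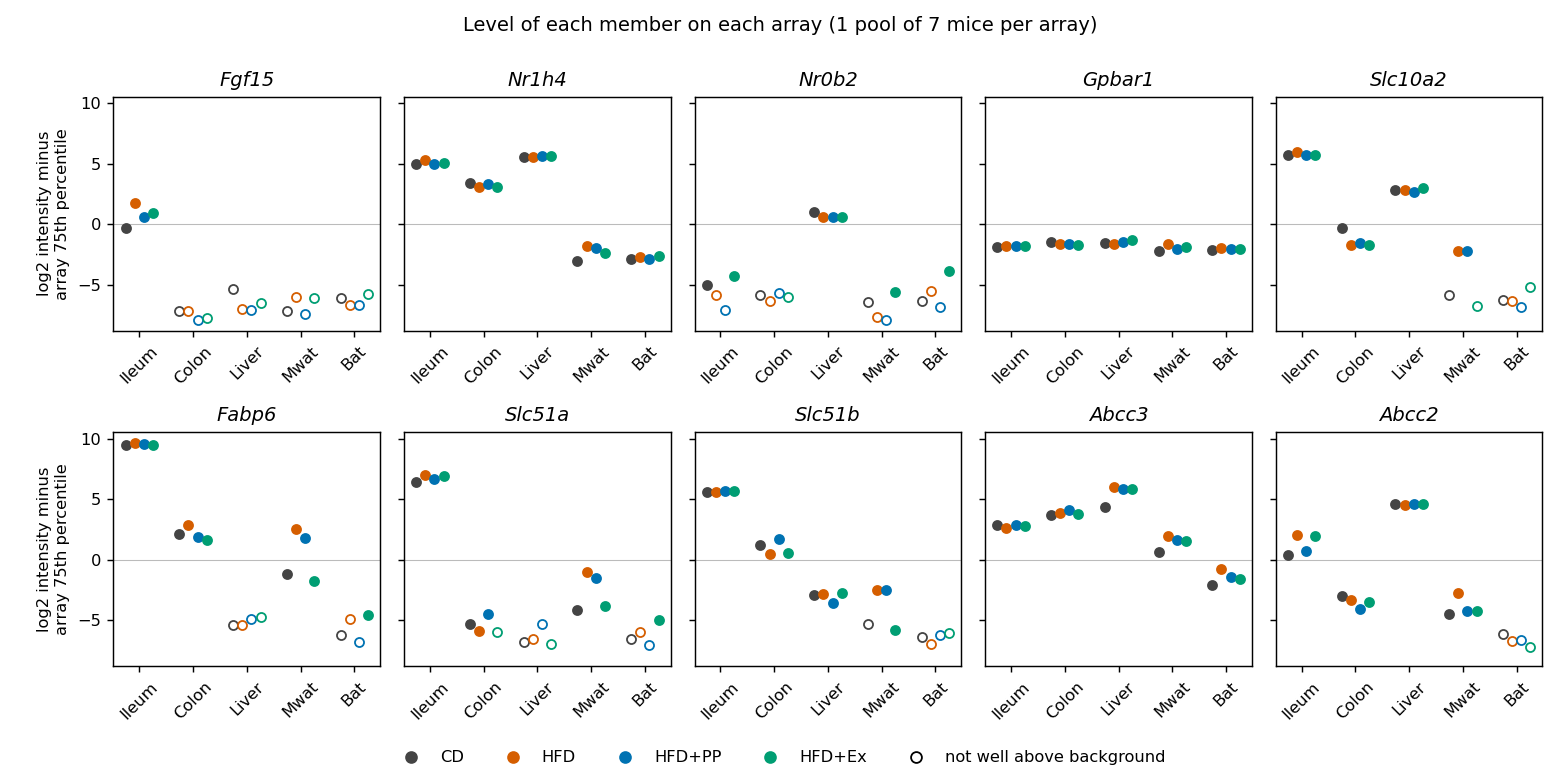
Level of each of the 10 genes on each of the 20 arrays (y axis, log2 intensity minus the 75th percentile of the array; x axis, tissue; colour, diet; 1 point per array). Open points were not well above background. Fgf15 was well above background on the 4 ileum arrays, and Gpbar1 stayed between -2.19 and -1.34 on all 20.

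Fgf15, the hormone, had the most restricted pattern of the 10 genes. Its probe was well above background on the 4 ileum arrays and on none of the other 16. The ileal level was 0.74 ± 0.83 (mean ± SD over 4 diets). Against the array floor it was at least 105-fold higher in ileum than in colon and at least 55-fold higher than in liver, where a bound is given because all arrays of the dimmer tissue were below the detection limit.

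The bile acid receptors were more widely read. Nr1h4 (FXR) was well above background on all 20 arrays. Its level was 5.59 ± 0.057 in liver, 5.08 ± 0.14 in ileum and 3.20 ± 0.19 in colon (SD, n = 4). It was 3.68-fold higher in ileum than in colon (log2 difference 1.88 ± 0.11 SE, limma adjusted p = 6.7e-06). Between ileum and liver it differed by -0.51 log2, short of 2-fold, and that sign turned with the series' own normalized values (0.092) and with quantile normalization (0.27). Gpbar1 (TGR5), the membrane receptor for bile acids, had levels of -1.83 ± 0.054 in ileum, -1.64 ± 0.098 in colon and -1.51 ± 0.13 in liver. It passed the call in none of the 3 tissue comparisons, and its difference between ileum and colon was -0.20 log2 with a 95% interval from -0.39 to -0.006. Its single probe read much alike in all 5 tissues, between -2.19 and -1.34 on the 20 arrays. Whether that reading is the gene's own transcript was not tested. Nr0b2 (SHP), the repressor that FXR induces, was well above background on 4 liver arrays, 2 ileum arrays and no colon array. Its mean level in liver was 0.68, at least 91.4-fold above the floor of the colon arrays.

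The uptake and binding genes were ileal. Slc10a2 was at 5.78 ± 0.13 in ileum, 2.81 ± 0.13 in liver and -1.35 ± 0.67 in colon. The ileum was 140-fold above colon (7.13 ± 0.27 SE, limma adjusted p = 5e-07) and 7.83-fold above liver. Fabp6, the ileal bile acid binding protein, was at 9.53 ± 0.10 in ileum and 2.12 ± 0.52 in colon, a 171-fold difference (7.42 ± 0.27 SE, limma adjusted p = 4.6e-07). It was not well above background on any liver array.

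The export genes fell into an ileal pair and a pair that was brightest in liver. Slc51a was at 6.73 ± 0.25 in ileum. In colon it was near the detection limit, with a mean of -5.43 over 4 arrays, 3 of them well above background. It was below the limit on all 4 liver arrays. Slc51b was at 5.62 ± 0.026 in ileum, 0.99 ± 0.60 in colon and -3.06 ± 0.39 in liver, and all 3 tissue differences passed the call. Abcc3 (MRP3), a basolateral exporter, ran the other way: 5.52 ± 0.77 in liver, 3.85 ± 0.18 in colon and 2.78 ± 0.11 in ileum. Its ileum-to-colon difference of -1.07 ± 0.28 SE (limma adjusted p = 0.012) lost the call without the HFD+PP arrays (-1.03) and without the HFD+Ex arrays (-1.10). Abcc2 (MRP2), an apical exporter of conjugates, was at 4.58 ± 0.034 in liver, 1.26 ± 0.86 in ileum and -3.49 ± 0.44 in colon.

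**Figure D2:**
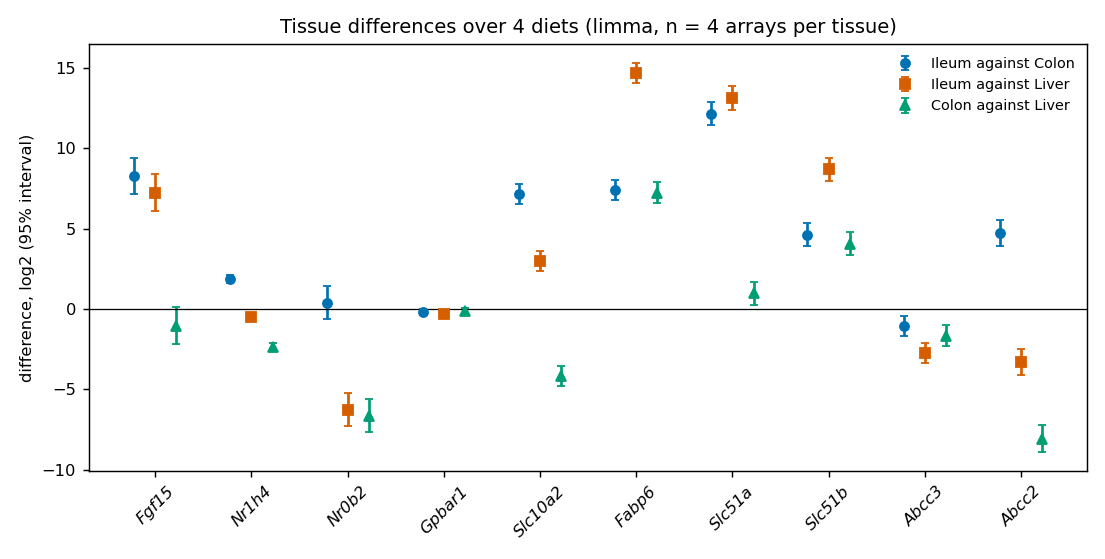
Tissue differences of the 10 genes (y axis, log2; points, limma estimate over 4 diets; bars, 95% interval; n = 4 arrays per tissue). Slc51a and Fabp6 stand 12.16 and 7.42 log2 higher in ileum than in colon, and Abcc3 stands below 0 in all 3 comparisons. Values of genes at background in a tissue (Fgf15 in colon and liver, Fabp6 and Slc51a in liver, Nr0b2 in colon) are estimates from dim probes. As bounds, ileum was above liver by at least 14.46 log2 for Fabp6 and at least 11.78 log2 for Slc51a. The text gives bounds for Fgf15 in ileum and for Nr0b2 in liver against colon.

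Promoters of 8 members, all but Fgf15 and Abcc3, were matched by symbol to RefSeq (GRCm38.p6), as windows from 250 bases before to 50 after the start. They were searched on both strands for an inverted repeat with 1 spacer base, AGGTCANTGACCT (the IR-1 element to which FXR binds with RXR), and for GTTAATNATTAAC (the palindrome of HNF1, a transcription factor of liver and gut epithelium), each with up to 2 mismatches; both motifs read the same on either strand. IR-1 matched in 1.14% and HNF1 in 1.36% of all 32851 windows. Among these 8 windows, IR-1 matched in that of Fabp6, at 2 places, and HNF1 matched in those of Slc10a2, Nr1h4 and Abcc2. The 4 windows with a match are shown. Those of Slc51a, Slc51b, Nr0b2 and Gpbar1 held no match and are not shown. Only the 250 bases before the start are printed, 5′ to 3′ on the gene's strand, with the matches in capitals.
Fabp6, chr11:43601563-43601812, minus strand: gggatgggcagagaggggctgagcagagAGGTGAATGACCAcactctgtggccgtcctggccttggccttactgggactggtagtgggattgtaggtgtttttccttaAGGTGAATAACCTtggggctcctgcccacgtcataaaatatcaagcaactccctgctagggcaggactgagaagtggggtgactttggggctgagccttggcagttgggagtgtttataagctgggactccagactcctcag
Slc10a2, chr8:5105288-5105537, minus strand: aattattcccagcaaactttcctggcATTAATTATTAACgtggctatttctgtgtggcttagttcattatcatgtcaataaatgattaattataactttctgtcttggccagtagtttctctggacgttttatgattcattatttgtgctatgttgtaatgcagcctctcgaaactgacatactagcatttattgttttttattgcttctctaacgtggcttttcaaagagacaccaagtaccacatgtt
Nr1h4, chr10:89506659-89506908, minus strand: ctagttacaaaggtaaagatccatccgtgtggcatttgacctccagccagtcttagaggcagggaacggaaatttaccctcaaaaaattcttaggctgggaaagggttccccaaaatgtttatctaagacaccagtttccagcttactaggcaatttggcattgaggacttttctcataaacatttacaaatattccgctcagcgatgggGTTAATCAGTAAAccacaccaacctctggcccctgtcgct
Abcc2, chr19:43782058-43782307, plus strand: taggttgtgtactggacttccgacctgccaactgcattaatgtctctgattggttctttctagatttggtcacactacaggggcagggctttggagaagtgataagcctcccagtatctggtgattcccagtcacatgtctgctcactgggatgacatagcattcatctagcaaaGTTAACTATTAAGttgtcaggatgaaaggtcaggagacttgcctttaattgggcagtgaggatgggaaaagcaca
The Fabp6 matches run from base -222 to -210 and from -142 to -130 relative to the start, each with 2 mismatches. The Slc10a2 match runs from -224 to -212 with 1 mismatch, that of Nr1h4 from -40 to -28 and that of Abcc2 from -75 to -63, both with 2. A match describes letters only; no binding was measured in this series.

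In the ileum, the high-fat diet went with higher Fgf15 and higher Abcc2. Fgf15 read -0.29 on CD, 1.73 on HFD, 0.62 on HFD+PP and 0.89 on HFD+Ex. The CD pool was the lowest and the HFD pool the highest, with both supplemented pools between them. Fgf15 was 4.07-fold higher on HFD than on CD (2.02 log2), and 39 of the 16512 measured genes (0.236%) rose at least as far. Porphyran went with a 2.16-fold lower level than HFD (-1.11 log2), and the nori extract with -0.84 log2, which did not reach 2-fold. With either supplement Fgf15 read above the CD pool, by 0.91 log2 with porphyran and by 1.18 log2 with the extract. The part of the liver and fat markers in the ileum pools, which fell from CD to HFD, was not tested; Fgf15 itself was not well above background on any liver or mesenteric fat array.

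Abcc2 read 0.34 on CD, 2.04 on HFD, 0.72 on HFD+PP and 1.93 on HFD+Ex. The HFD and HFD+Ex pools were alike and stood above the CD and HFD+PP pools. The rise on HFD was 3.25-fold (1.70 log2), matched or exceeded by 0.418% of measured genes. Against HFD it fell by 1.32 log2 with porphyran and differed by less than 2-fold with the extract; extract against porphyran it was 1.22 log2 higher. Liver Abcc2 shifted by the hepatocyte list's median in the CD pool would read -5.57, against 0.34 measured; the part of a changed share of other tissues was not tested.

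The rest of the ileal circuit moved little. In HFD against CD, 2 of 10 members rose and none fell, with 3.89% of all measured genes past 2-fold; the members' median was 0.23 log2 and that of all genes -0.002. In HFD+PP against HFD, 2 of 9 fell (background 2.90%), and in HFD+Ex against HFD 1 of 10 rose (1.85%), which was Nr0b2. Nr0b2 counted as measured in that pair through the HFD+Ex array alone, so it could not have fallen. In HFD+Ex against HFD+PP 1 of 10 rose (3.30%), in HFD+PP against CD none of 10 passed (2.38%), and in HFD+Ex against CD 2 of 10 rose (4.09%). These comparisons share arrays: HFD against CD and both supplements against HFD use the same HFD pool, so a high reading there moves all 3.

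Slc10a2 read 5.68, 5.98, 5.75 and 5.72 on CD, HFD, HFD+PP and HFD+Ex. Fabp6 read 9.48, 9.66, 9.56 and 9.43 in the same order, and Slc51b 5.59, 5.61, 5.65 and 5.63. In all 3 the 4 diets lay within 0.30 log2 of each other. Slc51a was lowest on CD (6.42) and highest on HFD (6.98), with 6.63 on HFD+PP and 6.90 on HFD+Ex, a spread short of 2-fold. Nr1h4 read 5.00, 5.28, 4.98 and 5.07, and Abcc3 read 2.84, 2.64, 2.89 and 2.75. Nr0b2 was at the detection limit: -5.07 on CD and -4.32 on HFD+Ex were well above background, and -5.86 on HFD and -7.07 on HFD+PP were not. Its difference between HFD+Ex and HFD was at least 2.23-fold as a bound, and it lost the call with quantile normalization and with normexp background correction.

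**Figure D3:**
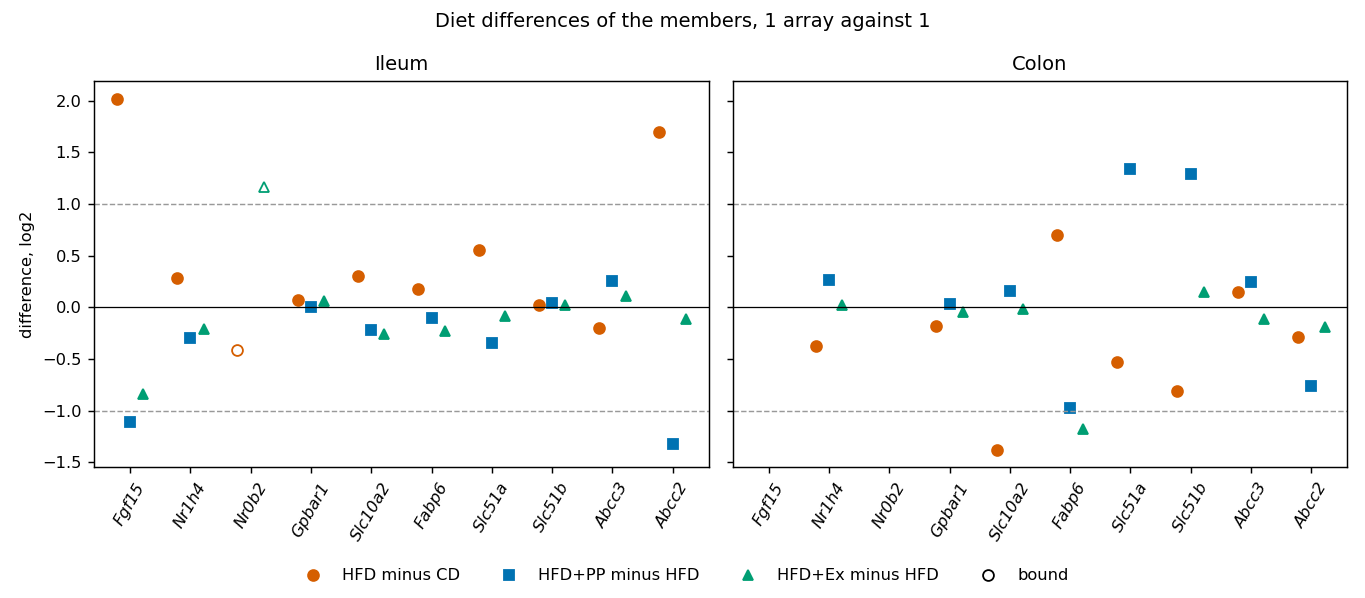
Differences of each member between diets in ileum and colon (y axis, log2; dashed lines, 2-fold; open symbols, bounds where 1 array was not well above background; 1 array against 1). In ileum, Fgf15 and Abcc2 stand at 2.02 and 1.70 for HFD minus CD; in colon, Slc10a2 stands at -1.38 for HFD minus CD and Slc51a and Slc51b at 1.34 and 1.29 for HFD+PP minus HFD.

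**Figure D4:**
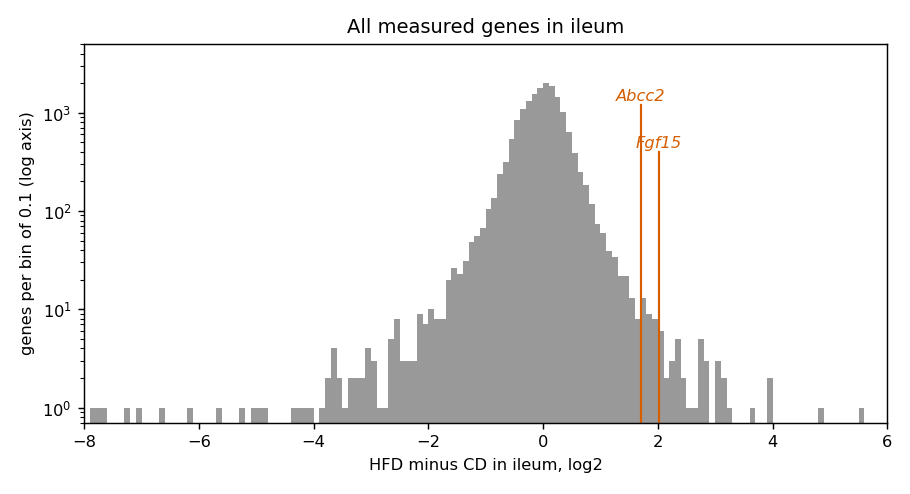
Distribution of HFD minus CD in ileum over the 16512 measured genes (x axis, log2, bins of 0.1; y axis, genes per bin on a log scale). Vertical lines mark Fgf15 at 2.02 and Abcc2 at 1.70, both in the right tail.

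Other genes of bile acid handling in the ileum were read from fixed lists. Of 12 measured other bile acid carriers, 4 rose and 1 fell on HFD against CD, with a median of 0.14 log2. Abcb4, a phospholipid floppase of the ABC family, rose by 1.87 log2, and the multidrug exporters Abcb1a and Abcb1b rose by 1.71 and 1.58. In HFD+PP against HFD the same 3 genes fell by 1.63, 1.62 and 1.48 log2, 3 of 10 measured. Of 12 measured conjugation and detoxification genes, 4 rose and 2 fell on HFD, among them Cyp3a25, a cytochrome P450, by 1.84 log2; with porphyran Cyp3a25 and Cyp3a11 fell by 2.03 and 1.90. Neither the 15 genes of FXR partners, Rxra among them, nor the 7 measured genes of Fgf15 signalling held a member past 2-fold in ileum on HFD, with porphyran or with the extract. A list of 23 other FXR targets had median ileal levels of 2.39, 2.76, 2.31 and 2.56 on CD, HFD, HFD+PP and HFD+Ex. Of 22 enzymes of ceramide metabolism, which the title of the series names beside bile acids, 1 rose on HFD against CD (Acer1, 1.53 log2) and none passed with either supplement.

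Markers of ileal cell composition moved along with these differences. Of 20 markers of small intestinal enterocytes, 6 rose on HFD against CD and none fell (median 0.75), led by Fabp1 (3.08), Lct (2.72) and Apoa4 (2.69), which serve lipid handling and lactose digestion. None of the 20 pan-epithelial markers passed (median 0.27). A list of 10 proximal small intestine markers, Lct and Fabp1 among them, had median levels of 1.92, 2.92, 1.70 and 1.89 on CD, HFD, HFD+PP and HFD+Ex. For 5 distal small intestine markers the medians were 3.47, 4.14, 4.04 and 4.38. With porphyran against HFD, 4 of 20 enterocyte markers fell (median -0.54; Fabp1 -3.63), and 7 of 10 white adipocyte markers rose (median 1.35). On HFD against CD 6 of 10 white adipocyte markers fell (median -1.56), and 7 of 12 hepatocyte markers fell (median -1.43), Alb at least 97.1-fold. In bulk samples such as these, fewer cells of a type and less RNA per cell cannot be told apart. Centred on the gut epithelium list, Fgf15 and Abcc2 kept their calls in the comparisons named above. Over all 8 alternatives, Fgf15 ranged from 1.84 to 2.08 and Abcc2 from 1.53 to 1.76 on HFD against CD. The part of the enterocyte, proximal, distal, adipocyte and hepatocyte lists in these values was not tested.

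In the colon, the members that moved were other ones. Slc10a2 fell on HFD against CD, Slc51a and Slc51b rose with porphyran against HFD, and Fabp6 fell with the extract against HFD. That is 1 of 8 measured members against a background of 2.15%, 2 of 8 against 2.85% and 1 of 8 against 1.54%. In HFD+Ex against HFD+PP 2 of 8 fell (3.15%). Slc51a is among these, measured through the HFD+PP array alone, so it could not have risen. Against CD, 2 of 8 fell with porphyran (3.04%) and 1 of 8 with the extract (2.60%).

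Colonic Slc10a2 read -0.35 on CD, -1.73 on HFD, -1.57 on HFD+PP and -1.74 on HFD+Ex. The CD pool stood alone and the 3 high-fat pools lay together. The drop from CD to HFD was 2.6-fold (-1.38 log2), and 1.1% of measured genes fell at least as far. The CD pool of the colon held hepatocyte RNA, and 8 of 12 hepatocyte markers fell on HFD (median -3.50). Liver Slc10a2 shifted by the list's median of -8.63 would read -5.82, against -0.35 measured. Of 20 enterocyte markers 1 rose and 2 fell (median -0.089), with Fabp1 down by 4.79 log2. Ileal Slc10a2 lowered by the enterocyte list's median difference from ileum would read 1.42, -0.32, 1.44 and 0.62 on CD, HFD, HFD+PP and HFD+Ex. Each lay above the measured level of its pool. The part of either list in the Slc10a2 value was not tested.

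Slc51a and Slc51b, both subunits of the basolateral exporter, were highest in the colon pool on porphyran. Slc51b read 1.24 on CD, 0.43 on HFD, 1.72 on HFD+PP and 0.58 on HFD+Ex. It was 2.45-fold higher with porphyran than on HFD and 2.21-fold lower with the extract than with porphyran. Slc51a read -5.34, -5.87, -4.53 and -5.97 in the same order of diets, close to the detection limit and below it on HFD+Ex. Its 2.54-fold rise with porphyran was reduced to 0.36 log2 by normexp background correction, and its drop from porphyran to extract to -0.39. In the same comparison 3 of 19 enterocyte markers rose (Fabp2 by 2.36 and Alpi by 2.35 log2). Cdx2, a transcription factor of intestinal identity, rose by 2.20, and 4 of 12 exocrine pancreas markers rose. Ileal Slc51b lowered by the enterocyte list's median difference from ileum would read 1.33, -0.69, 1.34 and 0.53 in that order of diets. For Slc51a the same shift gives 2.16, 0.68, 2.32 and 1.80, far above its measured levels. The part of these lists and of Cdx2 in the Slc51 values was not tested.

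Colonic Fabp6 was highest on HFD, with 2.13 on CD, 2.83 on HFD, 1.86 on HFD+PP and 1.65 on HFD+Ex. The drop to the extract was 2.27-fold. Abcc2 read -3.03, -3.32, -4.08 and -3.51, and fell on porphyran against CD by 1.05 log2 (-0.49 with normexp); liver Abcc2 lowered by the hepatocyte list's shift would read -4.06 on CD, against -3.03 measured, and the part of this in the difference was not tested. Nr1h4 read 3.41, 3.03, 3.30 and 3.06, and Abcc3 read 3.71, 3.86, 4.10 and 3.75, both within 2-fold over all diets. Fgf15 and Nr0b2 were not well above background on any colon array.

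In the liver, the target of Fgf15, a single member moved. Abcc3, which exports bile acid conjugates towards blood, read 4.37 on CD, 6.01 on HFD, 5.87 on HFD+PP and 5.81 on HFD+Ex. All 3 high-fat pools stood above the CD pool and lay within 0.20 log2 of each other. The rise on HFD was 3.1-fold (1.63 log2), 1 of 7 measured members, with a background of 4.82%. None of 7 passed with porphyran against HFD (background 2.13%) or with the extract against HFD (3.05%). Nr1h4 read 5.53, 5.56, 5.66 and 5.61, Slc10a2 2.81, 2.80, 2.66 and 2.97, and Nr0b2 0.98, 0.58, 0.61 and 0.55. On the liver HFD array 5 of 8 measured white adipocyte markers, 4 of 8 smooth muscle and 5 of 6 mesothelial markers were also higher than on CD; their part in the Abcc3 value was not tested.

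The receptors and targets of the ileal hormone were read in the same liver pools. Fgfr4 read 3.58, 3.27, 3.46 and 3.55, and Klb 2.78, 1.90, 2.32 and 2.20, on CD, HFD, HFD+PP and HFD+Ex. Cyp7a1 read 3.06, 3.47, 4.20 and 4.05, lowest on CD and highest on porphyran. Cyp8b1, the enzyme that sets the cholic acid share, read 3.41, 4.0, 4.12 and 4.07, and Abcb11, the canalicular bile salt export pump, 6.91, 6.21, 6.38 and 6.52. None of these 5 genes differed 2-fold between HFD and CD or between a supplement and HFD, although Cyp7a1 differed more than 2-fold between porphyran and CD. Of 16 genes of bile acid synthesis, none rose and 1 fell on HFD against CD (Cyp39a1, -1.06 log2). The brightest probe named Slc10a1, the hepatocyte uptake transporter, read 8.70 to 9.78 in liver, ileum and colon alike and was not taken as a reading of a liver gene. Malrd1 was not matched on the array.

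In mesenteric fat, transport genes of the ileum appeared in a diet-dependent way together with gut markers. On HFD against CD 7 of 8 measured members rose, with a background of 17.3% for this pair of arrays. Slc10a2 and Slc51b counted as measured there through the HFD array alone, so they could not have fallen. Fabp6 read -1.21 on CD, 2.56 on HFD, 1.78 on HFD+PP and -1.81 on HFD+Ex. Slc51a read -4.17, -0.99, -1.53 and -3.84, and Slc10a2 was well above background on HFD (-2.21) and HFD+PP (-2.26) and not on CD or HFD+Ex. Slc51b followed the same order with -5.30, -2.50, -2.50 and -5.82, the first of them below the limit. All 4 were high on HFD and HFD+PP and low on CD and HFD+Ex.

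The rises on HFD were 13.7-fold for Fabp6, 9.05-fold for Slc51a, at least 8.22-fold for Slc10a2 and at least 6.71-fold for Slc51b. With normexp background correction Slc10a2 and Slc51b rose by 1.35 and 1.07 log2 and Slc51a by 1.95, while Abcc2 (0.73) and Nr1h4 (0.67) no longer reached 2-fold. In the same comparison 16 of 20 enterocyte markers rose (median 2.21; Alpi 4.13) and 15 of 19 measured pan-epithelial markers rose (median 1.81). With the extract against HFD 5 of 9 members fell (background 7.45%), as did 18 of 20 enterocyte markers (median -2.89). Slc10a2 counted as measured in that pair through the HFD array alone, so it could not have risen. With porphyran against HFD 1 of 8 fell, Abcc2 (background 8.89%). On the HFD array, Fabp6, Slc51a, Slc51b and Slc10a2 differed from the ileum of the same diet by -7.10, -7.97, -8.11 and -8.19 log2, and the enterocyte, pan-epithelial and goblet cell lists by medians of -5.20, -7.02 and -7.61. The part of gut RNA in the members' values was not tested. The 4 pools also differed in pancreas: all 12 exocrine pancreas markers fell on HFD against CD (median -5.89) and all 12 rose with porphyran (median 6.69). On HFD against CD 8 of 8 B and plasma cell markers (median -3.54) and 8 of 9 T cell markers (median -3.20) fell, and 6 of 9 macrophage markers rose (median 1.01). The CD and HFD pools were on 1 slide and the HFD+PP and HFD+Ex pools on another.

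**Figure D5:**
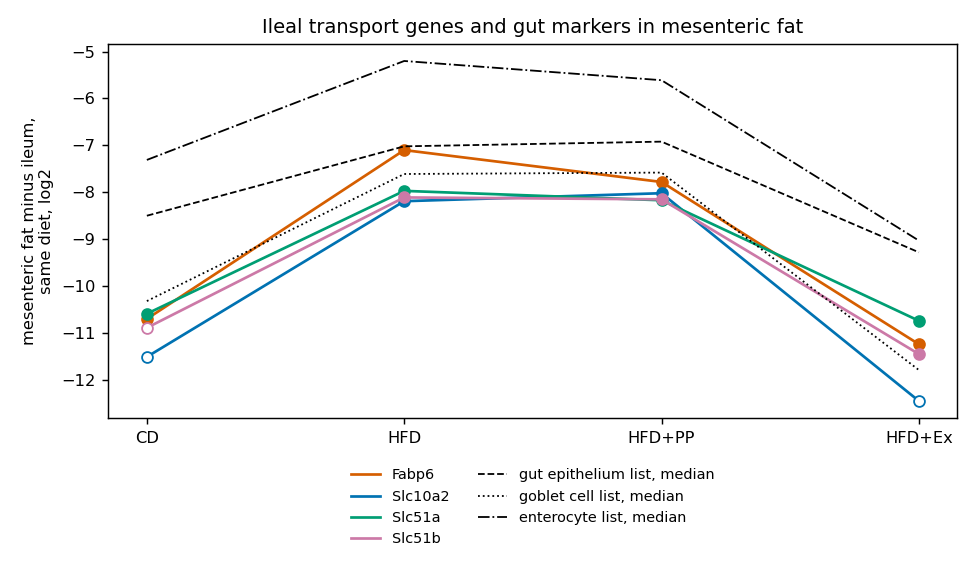
Mesenteric fat minus ileum of the same diet (y axis, log2) for Fabp6, Slc10a2, Slc51a and Slc51b (points; open where not well above background in fat) and the medians of 3 marker lists (broken lines), for the 4 diets; lines join points and imply no order. Fabp6 lies at -7.10 on HFD and at -11.24 on HFD+Ex, and the list medians are likewise nearest to ileum on HFD and HFD+PP.

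Other members were also read in fat. Nr1h4 read -3.01, -1.82, -2.0 and -2.39 in mesenteric fat on CD, HFD, HFD+PP and HFD+Ex, with 3.20 in colon and 5.59 in liver as tissue means of the same probe. Abcc3 read 0.59, 1.92, 1.58 and 1.53. In brown fat 1 of 3 measured members rose on HFD against CD (background 9.34%): Abcc3 read -2.08 on CD and -0.80 on HFD, with 8 of 9 measured macrophage markers (median 1.57) and 9 of 11 measured hepatocyte markers (median 3.47) also higher there. The part of both lists in the Abcc3 value was not tested. Normexp background correction reduced that Abcc3 difference to 0.67 log2.

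Over the 20 arrays, the genes whose log2 levels followed Fgf15 most closely among 17311 compared were Slc30a2, a zinc transporter (Pearson r = 0.981), Zdhhc19 (0.969), Myrfl (0.969), Xpnpep1 (0.968) and Ccl25, a small intestinal chemokine (0.968). Those closest to Slc10a2 were Nat8f5 (0.975), Nat8, Bach1, Ang4 and Abcg2 (0.968), and those closest to Fabp6 were Guca2b (0.988), 2010106E10Rik, Itln1, Nyap1 and Erich4 (0.976). Nr1h4 was followed by Wwc1 (0.993), Erlin1, Pklr and Epha1 (0.985), and Gpbar1 by Lonrf3 (0.947), Rnf149, Mindy1, Prrc1 and Map2k6 (0.898). The points of these correlations share tissue, so they mainly describe tissue pattern. Within the 4 ileum arrays, the centred profile nearest to Fgf15 was that of Scp2, a sterol carrier protein of peroxisomes, at a root mean square distance of 0.21 log2, followed by Hsd17b4 and Bst1 (both 0.22). Scp2 read 5.15 on CD, 6.61 on HFD, 5.94 on HFD+PP and 6.17 on HFD+Ex. Nearest to Abcc2 were the cytochromes Cyp2c29 (0.057) and Cyp2c67 (0.081), then A930038B10Rik (0.085); Cyp2c29 read -0.062, 1.5, 0.29 and 1.42. For the 7 other members well above background on the 4 ileum arrays, the nearest profiles lay within 0.013 log2. The ileal range of these members over the diets ran from 0.060 log2 (Slc51b) to 0.55 log2 (Slc51a).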

How the data were processed

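Gene expression was measured in pooled RNA on 20 Agilent one-colour arrays. The deposited scanner files give background-subtracted intensity per spot (Agilent Feature Extraction 11.5.1.1, per the file headers). The authors' deposited series matrix holds linear, uncentred intensity; each column was found to be the scanner intensity times 1 factor per array (log2 of the factor 0.916 to 1.650; column medians 53.5 to 104), and log2 of it served as an alternative. The genome build of the probe annotation was not given in the sources used here. Control spots and outlier flags were left out, spots of a probe were averaged, and log2 intensity minus the 75th percentile of the array was used. The brightest probe stood for a gene; each member has 1 probe. A dim probe (not well above background) was set to the floor of its array for bounds. Tissues were compared with limma 3.58.1 in R 4.3.3 (lmFit and eBayes, diet as a block, 16850 genes well above background on at least 4 of 12 arrays, Benjamini-Hochberg over all of them), after a test on simulated data. Diets have 1 array per tissue and no test. Normexp used the median foreground signal, since the files hold no mean signal. Members and lists were chosen with earlier results of these data known.

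The genes named were all 10 members, up to 4 genes per list and comparison with the largest change of at least 2-fold, fixed partners (Fgfr4, Klb, Malrd1, Rxra, Cyp7a1, Cyp8b1, Abcb11, Slc10a1), the 5 genes most correlated with 5 of the members, and the 3 nearest ileum profiles of each member; 1 gene this rule names is not reported here. Of 322 list entries 7 were not matched. All RNA came from pools of 7 mice. With diet as a block, p-values measure how far tissue differences varied between the 4 diets, not the spread between mice. Alternatives were the series matrix, quantile normalization, a percentile over bright probes, normexp, other filters on dim probes, the mean over probes, centring on the gut epithelium list, other sets of arrays, and no diet block. The number of arrays limits the precision.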

Additional observations from a re-analysis of the deposited data

Results flagged for a closer look

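In 32 sets of 4 arrays (a member well above background on all arrays of a tissue), 4 readings stood apart from the other 3 by Dixon's criterion, where chance gives about 1.6 (1 of 20 sets). The CD pool stood apart for Nr0b2 in liver (0.98, above the others), for Slc10a2 in colon (-0.35, above the others) and for Abcc3 in liver (4.37, below the others). The HFD pool stood apart for Abcc2 in mesenteric fat (-2.73, above the others). Slc10a2 moved in opposite directions on HFD against CD in 2 tissues, by at least 3.04 log2 upward in mesenteric fat and by -1.38 log2 in colon; that difference was not tested.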

How the results depend on the processing

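Of the counts that answer a comparison, 206 stayed within 1.5 times their reported value or on the same side across alternatives, 10 became smaller and 7 larger. Members past 2-fold came to 0 in mesenteric fat (HFD+PP against HFD) and in brown fat (HFD against CD) with normexp, to 0 in ileum (HFD+Ex against HFD) with quantile normalization, normexp or a filter on both arrays, and to 1 in colon for porphyran against HFD, extract against porphyran and porphyran against CD with normexp, and for extract against porphyran with the filter on both arrays. Without a filter on dim probes they came to 2 in liver and in brown fat (HFD against CD), 1 in liver (HFD+PP against HFD), 2 in mesenteric fat (HFD+PP against HFD), 2 in ileum (HFD+Ex against HFD+PP) and 1 in ileum (HFD+PP against CD); centred on the gut epithelium list, colon HFD against CD came to 2. Genes called between ileum and colon came to 1673 with normexp. The sign of some uncalled differences turned: Nr1h4 ileum against liver (0.092 with the series matrix, 0.27 with quantile normalization), Gpbar1 ileum against liver (0.27 and, with the percentile over bright probes, 0.037) and Slc51a colon against liver (-0.66 with normexp). The cause was not tested. Counts of all genes past 2-fold ran from 260 to 2833 as reported, from 21 to 1757 with normexp, from 103 to 2353 with the filter on both arrays and from 1006 to 3745 without a filter. No paired analysis was possible because each diet has 1 array per tissue with no replicate numbers; the tissue comparisons already block on diet. The second-brightest-probe alternative gave no value, since each member has 1 probe. Signal near background limits Nr0b2, and Slc51a in colon.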
